A study of Rattus norvegicus with 6 samples.

Results

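The genes described are 7 subunits of the voltage-gated sodium channel: the alpha subunits *Scn1a*, *Scn3a*, *Scn8a* and *Scn9a* and the beta subunits *Scn2b*, *Scn3b* and *Scn4b*. They were chosen by name, and every probe whose RefSeq accession belongs to one of them was used. Each gene had 1 probe, printed on 1 spot, out of 13903 genes with a named probe on the array. The animals were male Wistar rats, either 3 or 12 months old, and the labels name no treatment; RNA was taken from islets freed from the pancreas with collagenase, and 3 arrays were made per age. Total RNA was labelled with Cy3 and hybridised to a 1-colour Arraystar array of Agilent format. The islets were whole preparations, so that fewer cells of a type and less RNA per cell cannot be told apart. Every 12-month array was scanned together with the others of its age and apart from the young ones, so that the scan is confounded with age throughout and the 2 cannot be told apart. Between 59.5% and 64.2% of probes were above background on the 12-month arrays and between 73.0% and 77.4% on the 3-month arrays, and 3-month array 1 was the dimmest, with a 75th percentile of 8.46 log2 units against 10.2 to 11.4 on the others.

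Voltage-gated sodium channels open when a cell depolarises and carry the fast inward sodium current that drives the upstroke of an action potential. The alpha subunit forms the pore, senses voltage and inactivates within milliseconds of opening. Beta subunits are single-pass membrane proteins with an immunoglobulin-like outer domain that alter gating, surface expression and adhesion of the channel. Islet endocrine cells are electrically excitable, and sodium current adds to the calcium current that triggers hormone release; nerve fibres within the islet carry sodium channels too.

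Of the 7 subunits 3 gave signal well above background, the scanner software's mark for a spot clearly above its estimate of background. *Scn3a* and *Scn3b* were above background on all 6 arrays and *Scn1a* on 5 of 6. *Scn2b*, *Scn4b*, *Scn8a* and *Scn9a* were above background on no array of either age. Only the first 3 therefore passed the requirement of signal above background on at least 3 arrays and entered the comparison of ages. Levels are given as quantile-normalized log2 signal; since probes differ in how strongly they bind, the level of one gene is not set against that of another.

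**Figure D1:**
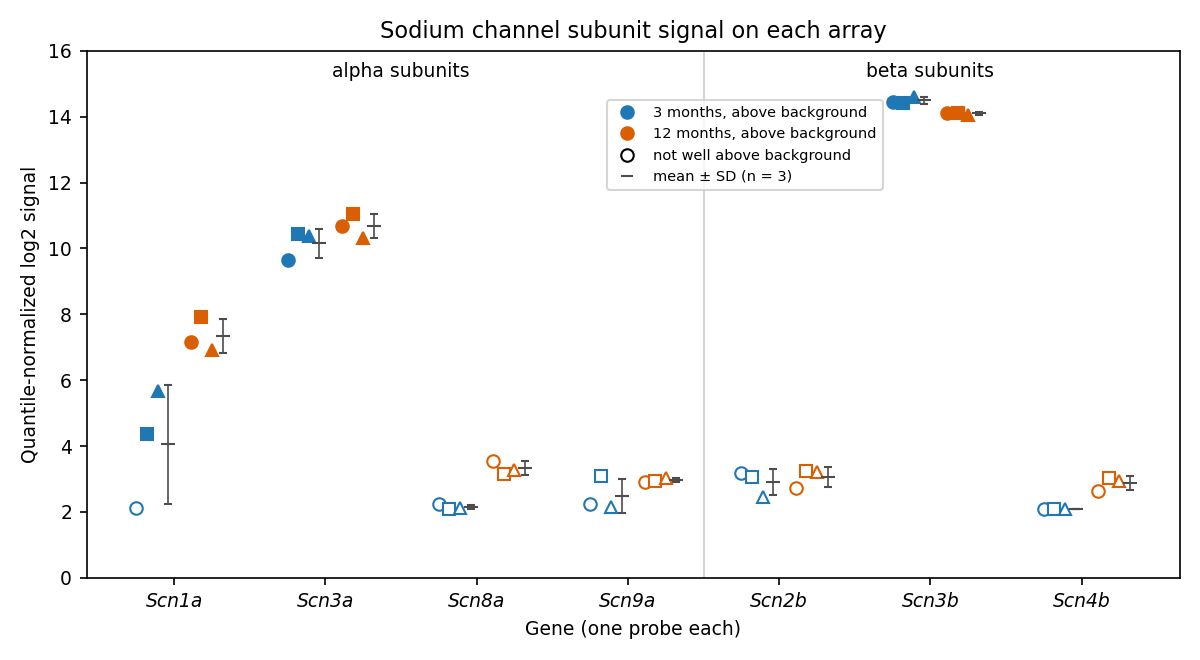
Quantile-normalized log2 signal (vertical axis) of each of the 7 subunits on the 6 arrays, with 3-month arrays in blue and 12-month arrays in orange; circles, squares and triangles are replicates 1, 2 and 3, filled where the spot was well above background, and bars are the mean ± SD of 3 arrays. *Scn1a* lies higher on the 3 orange points than on the 3 blue ones, *Scn3a* overlaps between the ages, and *Scn2b*, *Scn4b*, *Scn8a* and *Scn9a* are open symbols throughout.

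Against an adjusted p of 0.05, 0 of the 3 subunits passed in limma with Benjamini-Hochberg adjustment over all 17941 tested probes, of which 8.37% passed, 5.32% as higher and 3.05% as lower at 12 months. Unadjusted p-values under 0.05 numbered 1 in limma and 2 in the methods' t-test, taken as unpaired, which also gave 0 after adjustment. Among all 11201 tested genes, unadjusted p-values under 0.05 numbered 3425 in limma and 3082 in that unpaired test. A fold criterion was more than a 2-fold change together with an unadjusted limma p under 0.05. It was met by 1 of the 3 subunits, *Scn1a*, which was higher at 12 months. Of all tested probes 22% met it, 10.1% as higher and 11.9% as lower. The study applied the same limits to p from the methods' paired t-test, for which limma stands in here. With that test, the third pair being set by elimination, 0 of the 3 subunits met the criterion. The ages did not overlap for 2 of the 3 subunits, *Scn1a* and *Scn3b*, against 39.1% of all tested probes, 16.5% with the 12-month arrays above and 22.6% with the 3-month arrays above. The median log2 difference of the 3 subunits was 0.53, against -0.13 over all 11201 tested genes. With 3 genes tested no result about the family is read from these counts, and the genes are described one at a time.

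*Scn1a* encodes an alpha subunit best known from neurons of the brain and from peripheral nerve. Its log2 signal was 7.17, 7.91 and 6.93 on 12-month arrays 1, 2 and 3. On 3-month arrays 1, 2 and 3 it was 2.11, 4.38 and 5.66. All 12-month arrays were higher than any 3-month array, and the spread was wider in the young islets, where array 1 was not above background. The means were 7.34 ± 0.51 at 12 months and 4.05 ± 1.80 at 3 months (SD, n = 3). The difference was 3.29 on the log2 scale, with a limma 95% interval from 1.26 to 5.31 and a standard error of 0.85. It had an unadjusted p of 0.00656 and an adjusted p of 0.0603 in limma, so it met the fold criterion with limma's p and missed the adjusted threshold. With the methods' paired t-test its unadjusted p was 0.0961 and the fold criterion was not met. An exact permutation test of 3 arrays against 3 gave p = 0.1 (two-sided), the smallest that 20 arrangements allow.

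How large the *Scn1a* difference was depended on which 3-month arrays were used and on how dim spots were treated. The uncorrected spot signal was 32.0 scanner units on 3-month array 1, where 20 of 153 negative control spots, which carry no rat probe, were as bright or brighter. On 3-month arrays 2 and 3 it was 52.0 and 87.0 units, above every negative control spot. At 12 months the spot read 327.5, 420.0 and 198.5 units, again above every negative control spot on its array. Without 3-month array 1 the log2 difference was 2.32 with an adjusted p of 0.0874 in limma, and without 3-month array 3 it was 4.09 with an adjusted p of 0.0530. Normexp background correction with an offset, which compresses differences of dim spots, gave 1.25 with an adjusted p of 0.0323. When signals under background were raised to the lowest signal well above background on their array, the difference was 2.93 with an adjusted p of 0.0330. *Scn1a* was higher at 12 months in all 17 alternatives in which it was tested, and it passed the adjusted threshold in 5 of them.

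*Scn3a* encodes an alpha subunit abundant in the developing nervous system and reported in islet endocrine cells of rodents. Its log2 signal was 10.69, 11.04 and 10.31 on 12-month arrays 1, 2 and 3. It was 9.64, 10.44 and 10.37 on 3-month arrays 1, 2 and 3. The lowest 12-month array lay below the upper 3-month arrays, so the ages overlapped. The means were 10.68 ± 0.37 and 10.15 ± 0.45 (SD, n = 3). The difference of 0.53 had a limma 95% interval from -0.25 to 1.31 and an adjusted p of 0.296. The interval includes no difference and also a rise of more than 2-fold, which these arrays therefore do not separate. Without 3-month array 1, which had the lowest value, the difference was 0.27 with an adjusted p of 0.589 in limma.

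*Scn3b* encodes a beta subunit that binds the alpha subunit without a covalent bond. Its log2 signal was 14.12, 14.12 and 14.06 on the 12-month arrays and 14.45, 14.43 and 14.60 on the 3-month arrays, in the order 1, 2 and 3. The arrays of an age lay within a narrow range and every 12-month array was below every 3-month array. The means were 14.10 ± 0.034 and 14.49 ± 0.094 (SD, n = 3). The difference was -0.39, a 1.31-fold change, with a limma 95% interval from -0.90 to 0.11 and an adjusted p of 0.235. The methods' t-test, which uses this gene's own spread alone, gave an unadjusted p of 0.00240 and an adjusted p of 0.0613, and the exact permutation p was 0.1. The median of all tested probes was itself -0.17. With each array shifted to a common 75th percentile instead, the median of all probes was -0.40 and *Scn3b* was at -0.76 (limma adjusted p 0.0801). *Scn3b* lay below that median under both scalings and *Scn1a* and *Scn3a* above it.

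**Figure D2:**
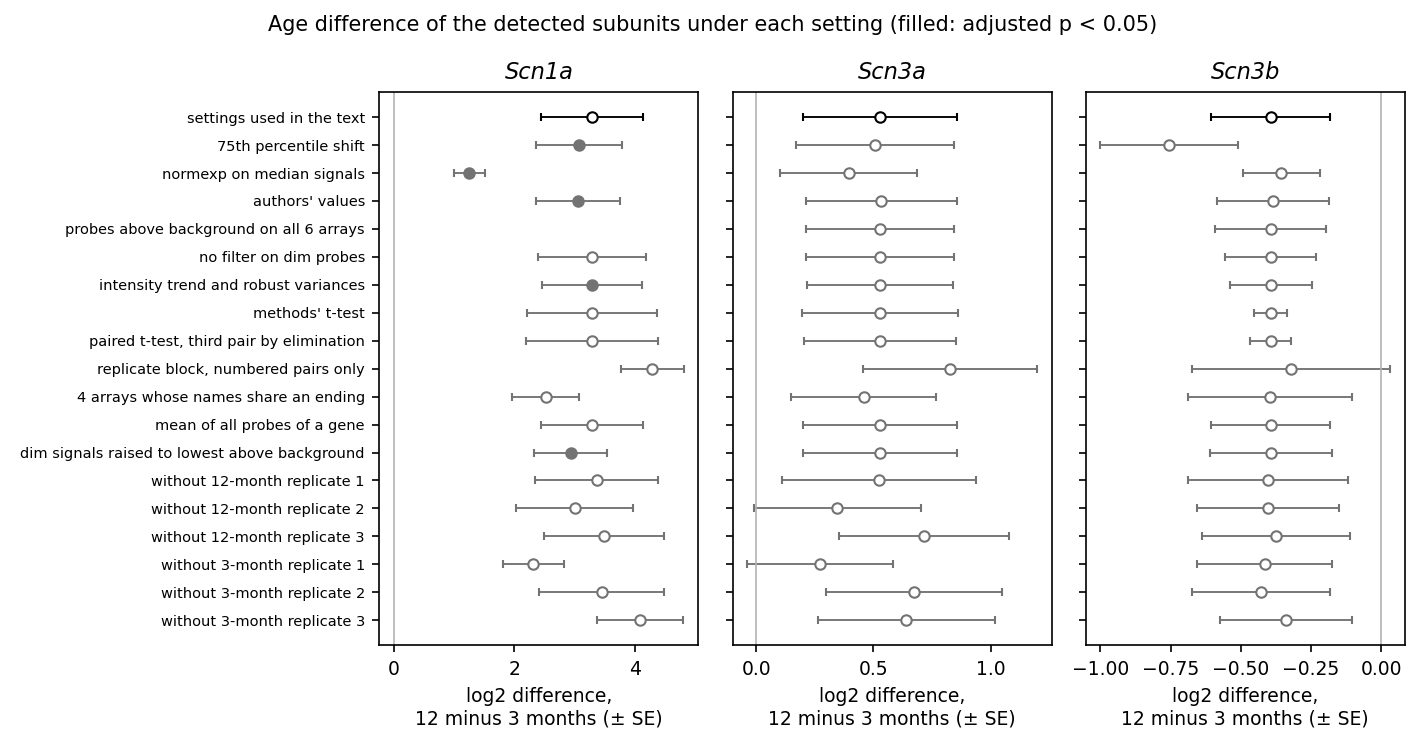
Log2 difference at 12 minus 3 months (horizontal axis, ± standard error; the range differs between panels) of the 3 subunits above background, under each setting named on the vertical axis, with filled symbols where the adjusted p was under 0.05. *Scn1a* and *Scn3a* lie above 0 and *Scn3b* below 0 in every setting drawn, and the only filled symbols are 5 of *Scn1a*, which ranges from 1.25 to 4.30.

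The 4 subunits under background comprised *Scn8a*, the alpha subunit concentrated at nodes of Ranvier of myelinated axons, *Scn9a*, an alpha subunit of sensory and sympathetic neurons also reported in rodent islet cells, and *Scn2b* and *Scn4b*, beta subunits joined to the alpha subunit by a disulphide bond. The uncorrected *Scn9a* spot read 100.5, 92.0 and 76.0 scanner units on 12-month arrays 1, 2 and 3, where the median negative control read 91.0, 91.0 and 89.5. On the 3-month arrays *Scn9a* read 32.0, 41.0 and 38.0 units against control medians of 29.5, 30.0 and 31.0. At 3 months at least 2 control spots on each array were as bright as *Scn9a*, and at 12 months between 23 and 149 of 153 were. *Scn2b* read 101.0, 97.0 and 95.5 units at 12 months and 35.5, 37.0 and 37.0 at 3 months. It exceeded every negative control on 3-month array 1, although it was not marked as well above background there. *Scn8a* read 120, 100 and 85 units at 12 months, above every control on array 1 only, and 31.5, 33.0 and 35.0 at 3 months. *Scn4b* read 30.5, 31.0 and 32.0 units at 3 months, where 43, 70 and 58 of 153 controls were as bright or brighter. At 12 months it read 74.5, 84.0 and 81.0 units, below the control median, and 152, 124 and 142 of 153 controls were as bright or brighter. Not being well above background sets no level for these transcripts: the sequences of the probes were not used here, and each gene was read by a single probe.

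*Scn8a* and *Scn4b* nevertheless had higher normalized values on every 12-month array than on any 3-month array. *Scn8a* was at 3.56, 3.14 and 3.26 log2 units at 12 months and at 2.23, 2.09 and 2.13 at 3 months. *Scn4b* was at 2.65, 3.04 and 2.95 at 12 months and at 2.10, 2.09 and 2.10 at 3 months. *Scn9a*, at 2.90, 2.95 and 3.04 against 2.24, 3.08 and 2.14, overlapped between the ages, as did *Scn2b*, at 2.72, 3.25 and 3.20 against 3.18, 3.07 and 2.47. No fold is given, since both ages were under background. Among the 4466 probes with a value on all arrays and signal above background on none, the 12-month arrays were all higher for 34.5% and the 3-month arrays all higher for 12.1%. The negative control median was 89.5 to 91.0 scanner units at 12 months and 29.5 to 31.0 at 3 months, and the lowest normalized log2 signal marked well above background was 4.26 to 5.13 at 12 months and 2.89 to 3.17 at 3 months. In a limma fit with no requirement on background, *Scn8a* passed with an adjusted p of 0.0274 and *Scn4b* did not (0.0519); 7.97% of the probes above background on no array were called higher in that fit.

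**Figure D3:**
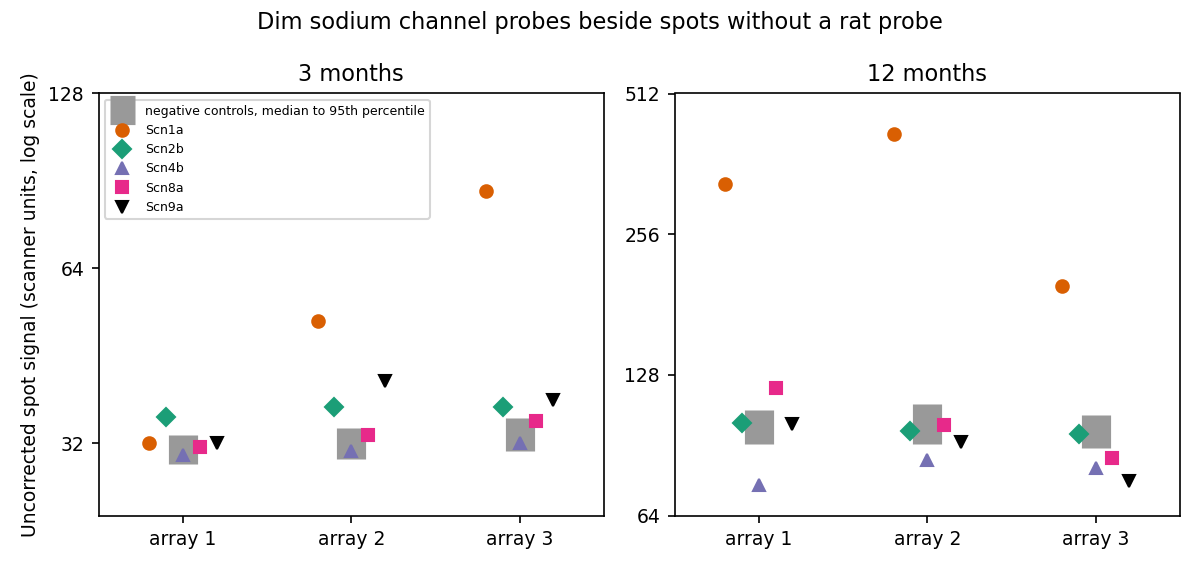
Uncorrected spot signal in scanner units (vertical axis, log scale, with different ranges for the ages) of *Scn1a* and of the 4 subunits under background on each array, beside the median to 95th percentile of 153 negative control spots (grey). *Scn1a* stands above the grey range on every array but 3-month array 1, while *Scn4b* lies within it at 3 months and under it at 12 months.

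The rat genes for sodium channel subunits lie partly in clusters, by the RefSeq gene table of assembly GRCr8, which is not the build of the array design and was used only for gene order. *Scn3a* is next to *Scn2a*, with 0 protein-coding genes between them, and *Scn1a* is next to *Scn9a*; 4 protein-coding genes separate *Scn2a* from *Scn1a*. Of the adjacent *Scn1a* and *Scn9a*, the former was above background on 5 arrays and the latter on none. *Scn2b* and *Scn4b* are also neighbours, and neither was above background on any array.

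Of the further sodium channel genes described here *Scn2a* and *Scn4a* were tested, and *Scn7a* had no probe matched by accession. *Scn2a*, a neuronal alpha subunit, was at 8.42, 8.61 and 7.81 log2 units at 12 months and at 6.50, 7.28 and 7.79 at 3 months. Every 12-month array was above every 3-month array, the closest by a narrow margin. The difference was 1.09 with an unadjusted p of 0.0300 and an adjusted p of 0.119 in limma. *Scn4a*, the alpha subunit of skeletal muscle, differed by 1.19 with overlapping ages and an adjusted p of 0.249. Its value rested on single arrays: the difference was 0.43 without 3-month array 1, on which it was not above background, and 1.80 without 3-month array 2. It was 0.26 on the 4 arrays whose names share an ending, which are 12-month arrays 1 and 2 and 3-month arrays 2 and 3. Of the 2 genes 0 passed the adjusted threshold, while 1 had an unadjusted p under 0.05 in limma and 0 in the methods' t-test. *Scn10a* and *Scn11a*, alpha subunits of sensory neurons, were above background on no array.

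Genes whose products bind, place or remove sodium channels were examined as a list of 17, of which 12 had a probe and 8 were tested. Of the 8, 3 rose at an adjusted p under 0.05 and 0 fell in limma, against 546 that rose and 334 that fell among all 11201 tested genes. The median log2 difference was 1.19 over the 8 and -0.13 over all tested genes. *Ank3*, which encodes ankyrin G, the scaffold that anchors sodium channels at the axon initial segment, was at 8.27, 8.22 and 9.53 log2 units at 12 months and at 5.50, 5.89 and 6.57 at 3 months. Its difference was 2.69 (limma SE 0.46, adjusted p 0.0222), whereas its other probe differed by 0.84 with an adjusted p of 0.281. *Cntn1*, a cell adhesion molecule that raises surface levels of sodium channels, was at 8.40, 8.04 and 9.08 at 12 months and at 5.56, 7.16 and 6.61 at 3 months. Its difference was 2.07 (limma SE 0.48, adjusted p 0.0470). *Nedd4*, a ubiquitin ligase of the family that removes sodium channels from the membrane, was at 15.17, 15.25 and 15.05 at 12 months and at 13.15, 13.89 and 12.80 at 3 months. Its difference was 1.88 (limma SE 0.33, adjusted p 0.0233).

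For each of *Ank3*, *Cntn1* and *Nedd4* all 12-month arrays were above all 3-month arrays, as for 16.5% of all tested probes. The other probe of *Ank3* overlapped between the ages. These genes were named because they were called higher on the same arrays, so the separation is no further evidence. None of these calls held in every fit that left out 1 array: adjusted p-values without 12-month replicate 1 were 0.0689 for *Ank3*, 0.138 for *Cntn1* and 0.0940 for *Nedd4*, and without 3-month replicate 1 they were 0.0806, 0.108 and 0.0853. Without 12-month replicate 3 they were 0.0545, 0.126 and 0.0734. *Ank3* also missed the threshold without 3-month replicate 2 (0.0557), and without 3-month replicate 3 *Cntn1* (0.109) and *Nedd4* (0.0637) did. Over all 18 alternatives *Ank3* and *Nedd4* passed in 10 each and *Cntn1* in 9. In the methods' t-test 0 of the 8 genes passed after adjustment and 4 had an unadjusted p under 0.05, against 266 and 3082 of all 11201 tested genes. *Fgf12* and *Fgf13*, intracellular proteins that bind the tail of the alpha subunit, differed by 1.36 and 1.03 with adjusted p-values of 0.182 and 0.262 in limma. *Rest*, the repressor of neuronal genes including sodium channel genes, was above background on no array.

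Of 16 genes for sodium pumps, exchangers and epithelial sodium channels 14 were tested and 0 passed the adjusted threshold in limma. At an unadjusted p under 0.05 the count was 3 in limma and 1 in the methods' t-test, which gave 0 after adjustment. The median log2 difference was 0.12, with 8 genes above 0 and 6 below.

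**Figure D4:**
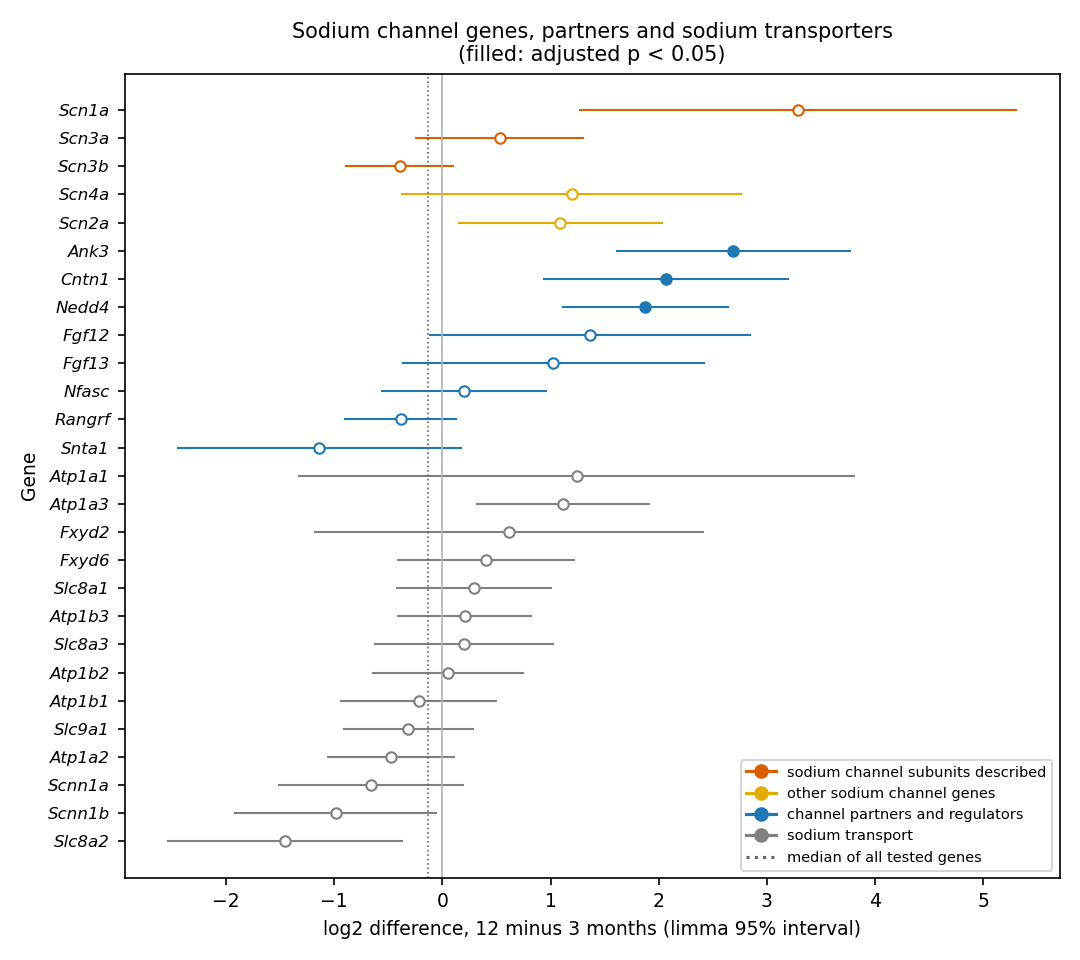
Log2 difference at 12 minus 3 months (horizontal axis) with its limma 95% interval for the tested subunits, *Scn2a*, *Scn4a*, and each tested channel partner and sodium transport gene, coloured by list and filled where the adjusted p was under 0.05; the dotted line is the median of all tested genes. The filled symbols are *Ank3*, *Cntn1* and *Nedd4*, and the interval of *Scn1a*, from 1.26 to 5.31, lies wholly above 0.

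The genes whose profiles over the 6 arrays lay closest to those of *Scn1a* and *Scn3b* were found among 11148 other tested genes, by the root mean square distance between log2 profiles after subtraction of each profile's mean. Closest to *Scn1a* were *Bclaf3*, *Gria4*, a subunit of AMPA-type glutamate receptors, and *Epb41l3*, a protein linking the membrane to the cytoskeleton, at distances of 0.40, 0.51 and 0.54 log2 units. These genes differed between the ages by 3.05, 3.39 and 3.31 log2 units, which follows from their choice as closest to *Scn1a* on the same arrays. Closest to *Scn3b* were *Tnfaip1*, *Fam120b* and the ribosomal protein gene *Rpl38*, at distances of 0.040, 0.043 and 0.049. Among the subunits themselves *Scn3a* and *Scn3b* lay 0.56 apart, *Scn1a* and *Scn3a* 1.61 and *Scn1a* and *Scn3b* 2.11.

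Sodium channels are carried by several cell types of an islet preparation, so markers of these were read on the same arrays. Over all 11201 tested genes 546 rose and 334 fell at the adjusted threshold in limma, and the median log2 difference was -0.13. The hormone genes *Ins1*, *Gcg*, *Sst* and *Ppy*, which define beta, alpha, delta and PP cells, were above background on all 6 arrays, as the islet label requires. Of 9 tested neuronal markers 8 were below 0 and 1 above, with a median log2 difference of -0.92; 1 passed the adjusted threshold lower (*Prph*, of peripheral neurons) and 1 higher (*Elavl4*). Their summed normalized signal ran from 7991 to 8355 at 12 months and from 11907 to 21292 at 3 months, and the acetylcholine synthesis gene *Chat* had no matched probe. All 6 tested Schwann cell markers were below 0 with a median of -0.99, and 2 of them passed (*Sox10* and *Mbp*, the latter by its brightest probe, while 1 of its 6 probes differed by 0.55 in the opposite direction); *Cdh19* was above background on no array. The sum over 5 of these, as *Sox10* lacked a value on 1 array, ran from 1942 to 2583 at 12 months and from 3695 to 4227 at 3 months. The 5 tested alpha cell markers had a median of 0.19 with 0 called, and their sum ran from 287559 to 335405 at 12 months and from 270949 to 274655 at 3 months. Of 7 tested beta cell markers 5 were above 0 and 2 below, with a median of 0.95, and 2 rose at the adjusted threshold (*Slc30a8* and *Slc2a2*). Their sums ran from 1052560 to 1197310 at 12 months and from 828988 to 970440 at 3 months. Of 7 tested striated muscle markers 4 were below 0 and 3 above, with a median of -1.64. At the adjusted threshold 3 fell and 0 rose. Their sums ran from 802 to 1259 at 12 months and from 1468 to 3076 at 3 months. Of 3 tested delta cell markers 1 rose, the transcription factor gene *Hhex*, by 1.68 (limma adjusted p 0.0236), with a median of 0.73 and sums from 280387 to 337390 and from 220709 to 286838. Of 3 tested smooth muscle and stellate cell markers 2 were above 0 and 1 below, with a median of 0.72. At the adjusted threshold 1 rose, the growth factor receptor gene *Pdgfrb*, by 1.68 (limma adjusted p 0.0453). Over 2 of these markers the sums ran from 7698 to 24300 at 12 months and from 13374 to 31253 at 3 months. Endothelial, acinar, duct, immune and red blood cell markers gave 0 genes past the adjusted threshold in limma. Their median log2 differences were -0.76, 0.10, 0.05, -0.0074 and -1.06, in that order. The alpha, beta and delta cell sums were carried mostly by hormone genes at the top of the signal range. Quantile normalization gives every array the same set of values there, so these sums say little about hormone RNA levels. *Ins1*, for one, had the same value of 18.72 on 12-month arrays 1 and 2 and on 3-month array 3. The part of any of these markers in the differences of the sodium channel genes was not tested.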

How the data were processed

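Islet RNA was read on 6 arrays, 3 per age. The authors deposited spot intensity from Agilent Feature Extraction 11.0.1.1, background-subtracted and uncorrected, per the file headers with no normalization between arrays, and a table of quantile-normalized log2 values for 12145 probes, whose filter is not given in the sources used here. Background-subtracted intensity was put on a log2 scale, spots of a probe were averaged without those the scanner software called outliers, and 24684 probes were quantile normalized together. Probes well above background on at least 3 arrays (17944) were compared by age, taken from the labels, with limma 3.58.1 in R 4.3.3 (two-sided, no block), and 17941 could be tested. Differences are 12 months minus 3 months. The brightest probe stood for a gene. Probes were named through their RefSeq accession, with the version dropped. Arrays have no depth; their number limits the precision, and p-values measure the spread between these arrays.

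The subunits, lists and tests were chosen with earlier results of these data known. All 7 subunits are named, with other sodium channel genes, list genes past the adjusted threshold and, for the subunit of highest mean signal and that of largest difference, the 3 closest profiles. *Fgf12*, *Fgf13* and *Rest* and the markers named were picked after their values were seen. Some list genes are not reported here. Alternatives were other scaling, background, filters, variance models, tests, pairings, probe choice and arrays left out; raising dim signals was added after seeing the data. The fit was also run on simulated data with independent noise at each probe. These held no scan effect, so they do not bear on the confounding of scan with age.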

Additional observations from a re-analysis of the deposited data

How the results depend on the processing

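No setting turned the sign of a subunit, and *Scn3a* and *Scn3b* passed the adjusted threshold in 0 of 18 alternatives each. *Scn1a* passed, giving 1 subunit in place of 0, with the 75th percentile shift (3.07), normexp (1.25), the authors' values (3.06), an intensity trend with robust variances (3.29) and dim signals raised to the lowest signal above background (2.93). With no filter on dim probes the 1 subunit passing was *Scn8a*, under background on all arrays, and 2 met the fold criterion. With probes above background on all arrays, where *Scn1a* was not tested, 0 met it. With the supplement's paired t-test, under the assumed pairing by number, 0 met it too. Leaving out 1 array gave *Scn1a* from 2.32 to 4.09, *Scn3a* from 0.27 to 0.71 and *Scn3b* from -0.43 to -0.34, with 0 subunits at the adjusted threshold each time and 1 by the fold criterion.

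Over all probes the adjusted count of 1502 was 2339 with no filter and 435 with the methods' t-test. It was 1 with the supplement's paired t-test under the assumed pairing and 0 with the replicate block of the numbered pairs. It was 0 for the 4 arrays whose names share an ending (12-month arrays 1 and 2, 3-month arrays 2 and 3). It ran from 208 up to 2163 when 1 array was dropped. The fold criterion gave 3953, and 2102 with normexp, 2379 on the authors' values (12145 probes) and 1552 with the supplement's paired t-test. It gave 2604 with those 4 arrays, and from 3122 up to 4885 when 1 array was dropped. With the 75th percentile shift 46.2% of the adjusted calls and 28.2% of the others were higher, against 63.6% and 46.0%. The number of probes or arrays also differed between some of these settings, and the cause of the changes in count was not tested.

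Deviations from the age means correlated at 0.085 between the arrays numbered 1 and at -0.28 between those numbered 2. With 3 arrays per age these correlations can neither show nor exclude a pairing of the rats by number. With the replicate block *Scn1a* was at 4.30, *Scn3a* at 0.83 and *Scn3b* at -0.32, none past the adjusted threshold (limma adjusted p 0.198, 0.368 and 0.645). Background was higher at 12 months, which limits any statement on the subunits under it. Scan could not be fitted as a block, since each age lies in 1 scan.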
